A study of Mus musculus with 57 samples.

Results

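Normal mouse thymus was set against normal mouse whole bone marrow: the arrays of wild-type thymus 1, 3, 4, 5 and 7 against those of wild-type whole marrow 1, 2 and 3, which are 8 of the 57 arrays of the series. The series profiles mice that carry a CA10 or an NHD13 transgene, with and without leukaemia, beside wild-type litter mates of similar age where these could be had. Both groups here were labelled wild type, so neither carries a transgene, and no treatment is given for either. The organs were used whole and RNA was hybridised to Affymetrix mouse expression arrays. The labels give neither the strain nor the age of these mice and do not say whether any mouse gave more than 1 sample, so p-values below measure only how far these arrays spread. Wild-type spleen, on 2 arrays, served as a further tissue.

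The 5 thymus arrays correlated with each other at 0.976 to 0.991 over the genes tested, and with the 3 marrows at 0.839 to 0.855. Both labels held up on the tissues' own genes: Rag1 was at 12.60 to 13.10 in the 5 thymuses, and Mpo at 12.89 to 13.42 in the 3 marrows. Thymus 2 and thymus 6 stood apart and were not used in the comparison, nor were marrows 4 to 6, whose signal was compressed like that of thymus 6. Thymus 2 lacked thymic genes (Rag1 4.06, Ccl25 5.50 on the log2 scale) and had very high fat genes (Ucp1 13.13, Adipoq 13.24). Thymus 6 had thymic genes (Rag1 12.26, Ccl25 11.99) but a compressed range of signal, with an upper quartile of 7.03 against 7.48 to 7.68 in the 8 arrays used. With all 7 thymuses in the fit, 3540 genes in place of 8359 passed the test. By Xist and Y-linked genes, thymus 4 was the only female sample of the 8, while thymus 6 and marrows 4 to 6 were also female. None of the 4 sex-linked genes tested was called. With thymus 4 among males they spread widely within thymus (SD 2.64 for Xist), so this says nothing about an effect of sex. Values are log2 signals, given for thymus 1, 3, 4, 5 and 7 and then for marrow 1, 2 and 3, a difference of 1 is a 2-fold difference in signal, and differences are thymus minus marrow with their standard error.

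The thymus takes in blood-borne progenitors and makes T cells from them. Its cortex is packed with thymocytes that carry CD4 and CD8 together and rearrange their T cell receptor genes, held in a mesh of epithelial cells whose chemokines, Notch ligands and peptides guide commitment and selection. Marrow makes the other blood lineages, from stem cells through granulocyte, erythroid, megakaryocyte and B cell precursors, among bone, vessels, stroma and fat. In whole tissue, fewer cells of a type and less RNA per cell cannot be told apart.

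Of 15310 genes tested, limma called 8359 (54.6%) at a Benjamini-Hochberg adjusted p under 0.05, of which 4760 were higher in thymus (31.1% of genes tested) and 3599 lower (23.5%). With more than 1 gene in 2 past the threshold, a call alone says little about a gene, and sizes matter more. The median difference over all genes tested was 0.03, with a median standard error of 0.13. A rise of at least 4 on the log2 scale was seen for 74 genes and a fall of at least 4 for 121, so the largest differences were more often genes low in thymus. Among the 8359 called genes, 7600 had no overlap between the 5 thymuses and the 3 marrows (non-overlap in either direction was seen for 52.9% of all genes tested).

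**Figure D1:**
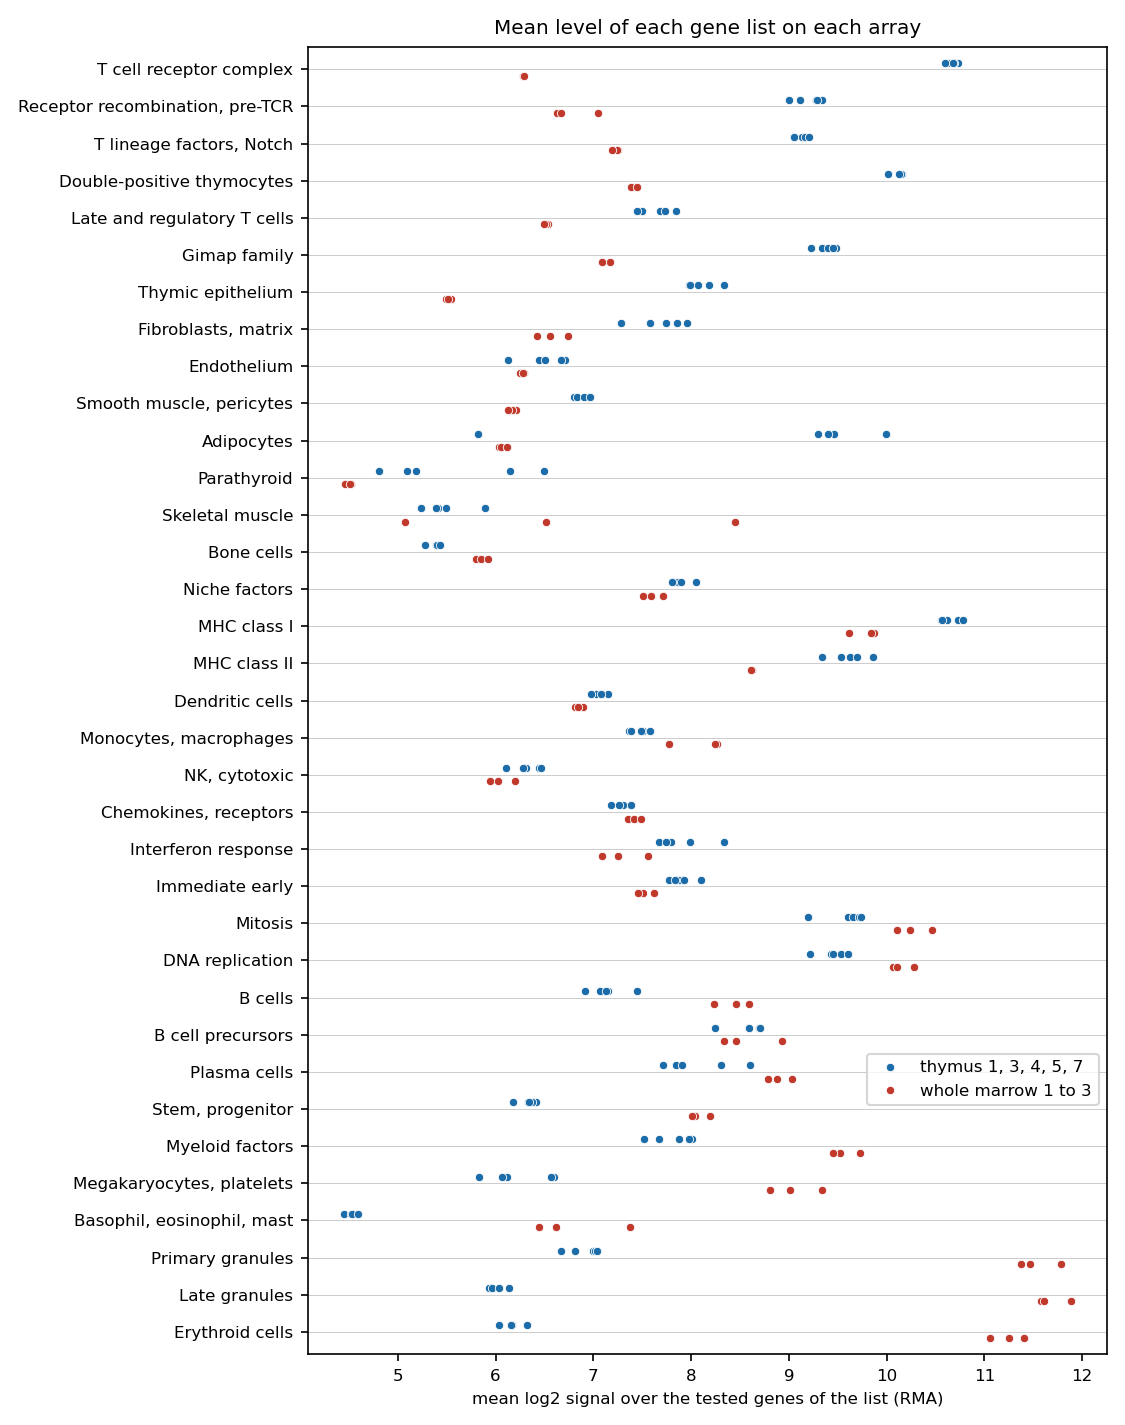
Mean log2 signal of each gene list in every array, with a point per array and thymus arrays drawn above marrow arrays. T cell receptor genes lie at 10.60 to 10.73 in thymus and 6.28 to 6.29 in marrow, and erythroid genes at 6.03 to 6.32 in thymus and 11.05 to 11.41 in marrow.

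The gene with the largest rise was H2-Q2, a non-classical MHC class I gene of the Qa region, with 10.93, 11.34, 11.02, 10.69 and 10.98 in thymus against 3.26, 3.28 and 3.15 in marrow, a difference of 7.76 ± 0.14 (SE, adjusted p = 7.84e-12, limma). Array medians were 5.52 to 5.58 in these 8 arrays, so the marrow values of H2-Q2 lie far down the scale, and RMA gives no detection call. The sizes and ranks of differences from such low signals are limited by how low a signal can read. Next came Cd8b1 at 7.70, the beta chain of the CD8 co-receptor, then Ccl25 at 7.30, the chemokine by which thymic epithelium draws progenitors in, and Tbata at 7.18, a gene expressed in thymic epithelium. Thy1, the surface antigen of mouse T cells, followed at 7.13, and Krt18, a simple-epithelial keratin, at 7.04. The 15 largest rises thus mixed thymocyte genes (Cd8b1, Thy1, Sh2d1a, Bcl11b, Cd3g, Themis, Cd8a, Endou, Arpp21) with epithelial ones (Ccl25, Tbata, Krt18, Krt8), beside H2-Q2 and Fxyd2, a regulator of the sodium pump. The 15 largest falls were neutrophil granule and maturity genes (Chil3, Ltf, Cd177, Camp, Mpo, Ngp, Prtn3, Mmp8, Lcn2, S100a9, Ctsg), red cell genes (Rhag, Slc4a1, Car1) and Ifitm6. The largest fall was that of Chil3, a chitinase-like protein of neutrophils, with 4.69, 4.06, 4.67, 4.74 and 4.54 in thymus against 13.35, 13.33 and 13.34 in marrow, a difference of -8.80 ± 0.15.

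**Figure D2:**
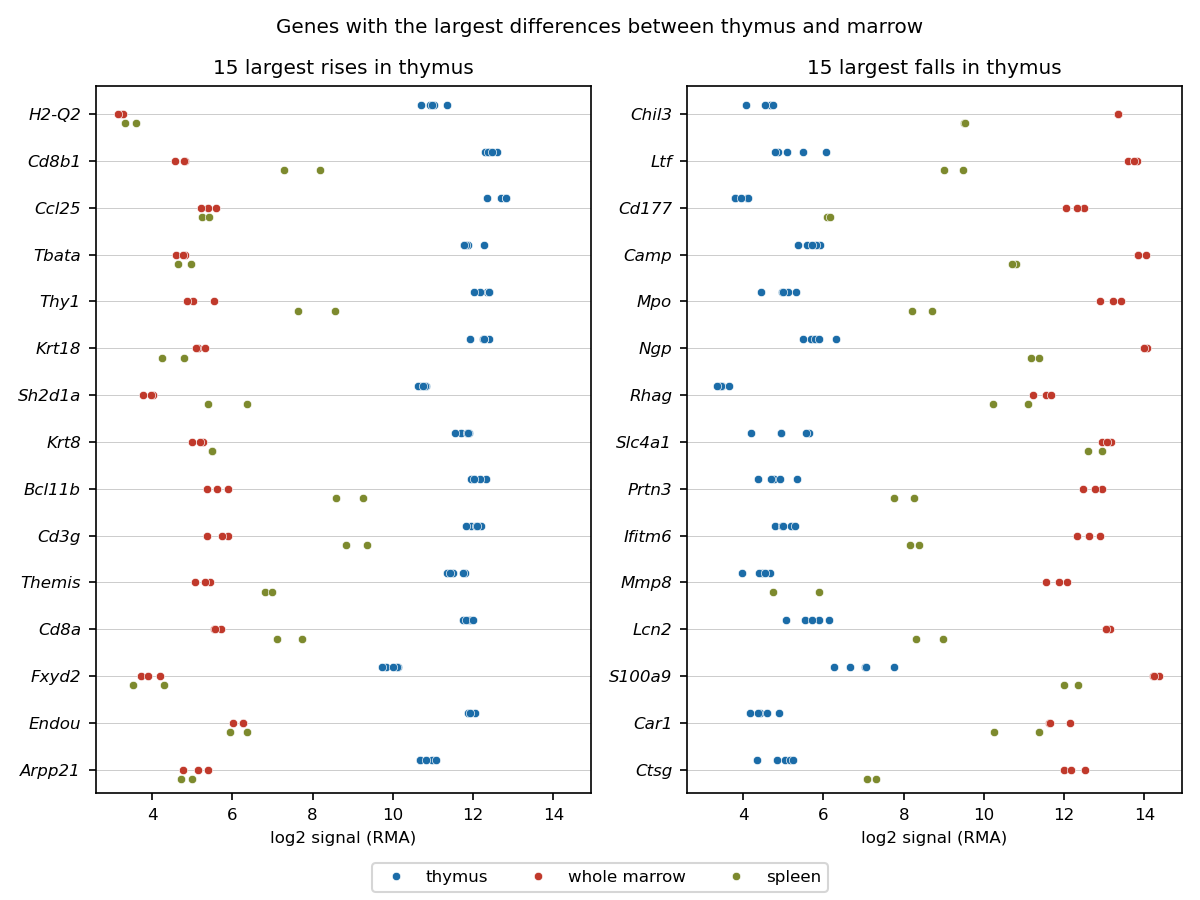
Log2 signal of the genes with the largest differences, with a point per array, drawn for each gene with thymus above marrow and spleen. Cd8b1 sits between 12.30 and 12.60 in the 5 thymuses and between 4.58 and 4.81 in the 3 marrows.

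Genes of the T cell receptor and its signalling rose almost as a block. Of 23 tested, 22 rose and 1 fell, with a median difference of 4.55 against 0.03 over all genes. All 22 that rose had every thymus above every marrow, as did 29.5% of all genes tested. Cd3g, a signalling chain of the receptor, had 11.95, 12.07, 12.21, 12.09 and 11.82 in thymus against 5.36, 5.88 and 5.73 in marrow (6.37 ± 0.14, adjusted p = 3.45e-11). Cd8a, the other CD8 chain, had 11.88, 11.76, 11.92, 11.83 and 12.01 in thymus against 5.71, 5.55 and 5.58 in marrow (6.27 ± 0.10). Cd4, the co-receptor for MHC class II, had 11.02, 11.21, 11.49, 11.47 and 11.39 in thymus against 7.16, 7.15 and 6.67 in marrow (4.32 ± 0.15). The 5 thymuses lay close together for each of these genes, and no marrow came near them. Cd247, the zeta chain, rose by 5.68, Cd3e by 3.72, Cd6, a co-receptor that tunes receptor signals, by 4.55, Themis, needed for positive selection, by 6.28, and Sh2d1a, the SAP adaptor, by 6.81. The exception was Zap70, the kinase that docks on the receptor's phosphorylated chains, and it turned on the probe set. Its probe set with the highest mean gave 7.83 in thymus against 8.11 in marrow, while another gave 8.85 in thymus against 4.96 in marrow and the last 7.05 in thymus against 5.86 in marrow.

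Receptor gene recombination showed the same direction with smaller differences. Of 10 genes, 9 rose and none fell (median 2.62), and all 9 separated the groups, against 29.5% of all genes with every thymus above every marrow. Rag1, which with Rag2 cuts receptor gene segments, had 12.79, 13.10, 12.60, 12.74 and 12.72 in thymus against 7.47, 7.17 and 8.65 in marrow, a difference of 5.03 ± 0.27 (adjusted p = 4.13e-08). Marrow 3 was the highest marrow, and even there the gene was more than 3 log2 units below the lowest thymus. In spleen Rag1 read 4.09 and 3.81, lower than in marrow, where B cell precursors also recombine their genes. Rag2 had 9.69, 10.16, 9.81, 9.47 and 9.94 in thymus against 5.62, 5.67 and 6.37 in marrow (3.92 ± 0.19). Dntt, the polymerase that adds untemplated bases at the joints, had 12.67, 12.79, 12.62, 12.42 and 12.50 in thymus against 8.83, 8.57 and 8.88 in marrow (3.84 ± 0.12), so its marrow signal was itself well above the spleen's 5.78 and 5.67. Ptcra, the surrogate alpha chain of the pre-T cell receptor, had 8.15, 7.62, 8.08, 7.28 and 7.10 in thymus against 4.82, 4.78 and 4.98 in marrow (2.79 ± 0.23). Of the joining enzymes, Lig4, the ligase of end joining, rose by 3.69 and Xrcc6, the Ku70 subunit, by 2.46. Xrcc5, the Ku80 subunit, rose by 1.41 and Xrcc4, the partner of Lig4, by 0.83. Nhej1, another joining factor, was the gene that did not pass, at -0.09 ± 0.13 (adjusted p = 0.572).

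The 250 bases before the Rag1 start site are shown because Rag1 is the only recombination gene of the 9 with a promoter in RefSeq whose 300-base window (250 bases before the start and 50 after) held the Runx-type motif TGTGGT on either strand. The bases shown are chr2:101649533-101649782 on the minus strand of GRCm38.p6, and capitals mark the matches, which begin 81 and 67 bases before the start.
Rag1: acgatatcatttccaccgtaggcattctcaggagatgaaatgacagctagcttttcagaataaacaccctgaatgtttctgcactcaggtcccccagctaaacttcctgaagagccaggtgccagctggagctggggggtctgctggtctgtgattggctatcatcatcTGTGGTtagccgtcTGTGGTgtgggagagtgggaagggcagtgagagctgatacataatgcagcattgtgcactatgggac
The motif was in 4 of 15 receptor gene promoters, 3 of 18 of the T lineage factors and 2 of 13 of the cortical thymocyte genes, against 18.92% of the promoters of 27025 genes. A match is a description and not a binding site.

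The transcription factors of the T lineage were less uniform. Of 24, 19 rose and 2 fell (median 2.00). Bcl11b, which seals commitment to the T lineage, had 12.03, 11.96, 12.32, 12.18 and 12.01 in thymus against 5.63, 5.89 and 5.37 in marrow, a difference of 6.47 ± 0.14 (adjusted p = 2.8e-11). Gata3, needed at several T cell stages, had 8.63, 8.59, 8.72, 8.77 and 8.26 in thymus against 4.54, 4.42 and 4.44 in marrow (4.13 ± 0.13). Satb1, a chromatin organiser of thymocytes, had 13.07, 13.35, 13.10, 13.09 and 13.02 in thymus against 9.39, 9.45 and 9.35 in marrow (3.73 ± 0.11). Each of these separated the groups by more than 3 log2 units. Egr1 and Egr2, induced by receptor signals, rose by 4.04 and 3.18, Id3, their target in thymocytes, by 2.97, and Lef1, a Wnt pathway factor, by 2.96. Tcf12, the E protein HEB, rose by 2.23. Notch1, the receptor that imposes T cell fate, did not pass: it had 9.96, 9.41, 10.23, 10.02 and 9.82 in thymus against 9.79, 9.51 and 9.44 in marrow, and the groups overlapped (0.31 ± 0.17, adjusted p = 0.145). Its paralogue Notch3 rose by 1.47. Heyl, a Notch target, read -0.18 ± 0.15 and did not pass, while other Notch pathway genes of the list rose: Dtx1 by 1.02, Hes1 by 0.42 and Nrarp by 0.30. Runx1, used by stem cells and thymocytes alike, had 8.54, 7.33, 8.23, 8.83 and 8.50 in thymus against 8.64, 8.29 and 7.91 in marrow and a difference of 0.01 ± 0.29, and its other probe sets ran from -1.06 to 0.58.

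Genes that mark cortical thymocytes with both co-receptors were mostly high, with 13 of 17 up and 3 down (median 2.54). Ccr9, the receptor for Ccl25, had 12.33, 12.21, 12.24, 12.03 and 12.04 in thymus against 6.70, 6.82 and 6.76 in marrow, a difference of 5.41 ± 0.11 (adjusted p = 1.76e-11). Endou, an endoribonuclease, had 11.91, 12.04, 11.90, 11.89 and 11.91 in thymus against 6.25, 6.01 and 6.27 in marrow (5.75 ± 0.10). Arpp21, an RNA-binding phosphoprotein, rose by 5.74, Ldhb, a lactate dehydrogenase subunit, by 4.28, and Rmnd5a, a ubiquitin ligase subunit, by 2.54. Cd24a and Cpa3 were among the 3 that fell. Cd24a, the heat-stable antigen of immature blood cells, had 11.89, 12.16, 12.05, 11.83 and 11.84 in thymus against 13.68, 13.62 and 13.68 in marrow (-1.71 ± 0.11), and Cpa3, a protease of mast cells and progenitors, fell by 2.17. Mns1 did not pass, at 0.20 ± 0.17.

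Of 18 genes of later thymocytes and regulatory T cells, 14 rose and 2 fell (median 1.19). Ikzf2, the factor Helios, had 10.91, 10.78, 10.79, 11.05 and 10.84 in thymus against 7.96, 7.78 and 7.42 in marrow (3.15 ± 0.13, adjusted p = 5.15e-09). Ccr7, which moves selected cells into the medulla, had 8.95, 8.67, 9.01, 9.27 and 8.64 in thymus against 6.02, 6.17 and 6.46 in marrow (2.69 ± 0.16). Cd69, an early activation antigen of cells under selection, had 9.22, 9.34, 9.24, 8.94 and 8.73 in thymus against 6.04, 6.68 and 6.52 in marrow (2.68 ± 0.18). Smaller rises were those of Itgae, the CD103 integrin chain (2.51), Icos (2.46) and Ctla4 (1.96), a co-stimulatory and an inhibitory receptor, Il2ra, the IL-2 receptor alpha chain (1.76), and Bcl2, a survival factor (1.30). Icos was the least even within thymus, at 7.15 in thymus 3 and 8.28 to 8.74 in the others. Cd40lg and Ms4a4b, of mature T cells, did not pass, at -0.08 ± 0.10 and 0.03 ± 0.10, and were dim in both tissues. All 8 Gimap genes, small GTPases of lymphocytes on chromosome 6, rose, by 1.36 (Gimap5) to 3.00 (Gimap6). Every thymus was above every marrow for each of them, and for 29.5% of all genes tested.

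Thymic epithelium gave the other large block of rises: 24 of 32 genes rose and 2 fell (median 2.40). Ccl25 had 12.79, 12.68, 12.83, 12.83 and 12.36 in thymus against 5.39, 5.23 and 5.59 in marrow, a difference of 7.30 ± 0.14 (adjusted p = 1.12e-11). Prss16, the thymus-specific serine protease of cortical epithelium, had 12.42, 12.52, 12.37, 12.88 and 12.24 in thymus against 7.37, 7.78 and 7.52 in marrow (4.93 ± 0.15). Psmb11, the proteasome subunit peculiar to cortical epithelium, had 8.99, 8.87, 8.25, 8.46 and 7.40 in thymus against 4.11, 4.25 and 4.09 in marrow (4.24 ± 0.29). Psmb11 varied more among thymuses than most, and thymus 7 was lowest. Ctsl, the cathepsin that trims peptides for MHC class II in cortical epithelium, had 13.47, 13.52, 13.43, 13.48 and 13.40 in thymus against 8.98, 9.21 and 9.38 in marrow (4.27 ± 0.11). Krt8 rose by 6.62, Perp, a desmosome protein, by 5.20, and Krt17, a basal keratin, by 4.55. Of the medullary genes, Aire, which lets epithelium show peripheral antigens, had 6.88, 6.74, 7.68, 7.82 and 7.95 in thymus against 5.48, 5.13 and 5.31 in marrow (2.11 ± 0.27, adjusted p = 4.86e-05). Thymuses 1 and 3 had the lowest Aire and thymus 7 the highest. Il7, the growth factor of thymocytes, had 7.82, 7.98, 8.05, 8.20 and 7.42 in thymus against 4.85, 4.66 and 4.62 in marrow (3.19 ± 0.16), and Ly75, the endocytic receptor DEC-205, rose by 1.15.

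Foxn1, the master factor of thymic epithelium, rose by 1.02 ± 0.18 by the probe set used (5.68, 5.59, 5.74, 6.20 and 5.34 in thymus against 4.46, 4.84 and 4.79 in marrow), and its second probe set gave 7.30 in thymus against 4.27 in marrow. Epcam, an epithelial adhesion molecule, did not pass by the probe set used (-0.12 ± 0.10), but the other gave 8.59 in thymus against 5.48 in marrow. The probe set with the highest mean signal thus read less of the difference for both genes. Cldn3 and Cldn7, tight junction claudins, read -0.20 ± 0.12 and 0.49 ± 0.20. Pax9, a pharyngeal pouch factor, read 0.28 ± 0.17, and Tnfrsf11a, the receptor RANK, 0.03 ± 0.14. None of the 4 passed by the probe sets used. Other probe sets gave 0.40 and 1.18 for Pax9, 0.32 for Tnfrsf11a and -0.37 to 0.47 for Cldn3.

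**Figure D3:**
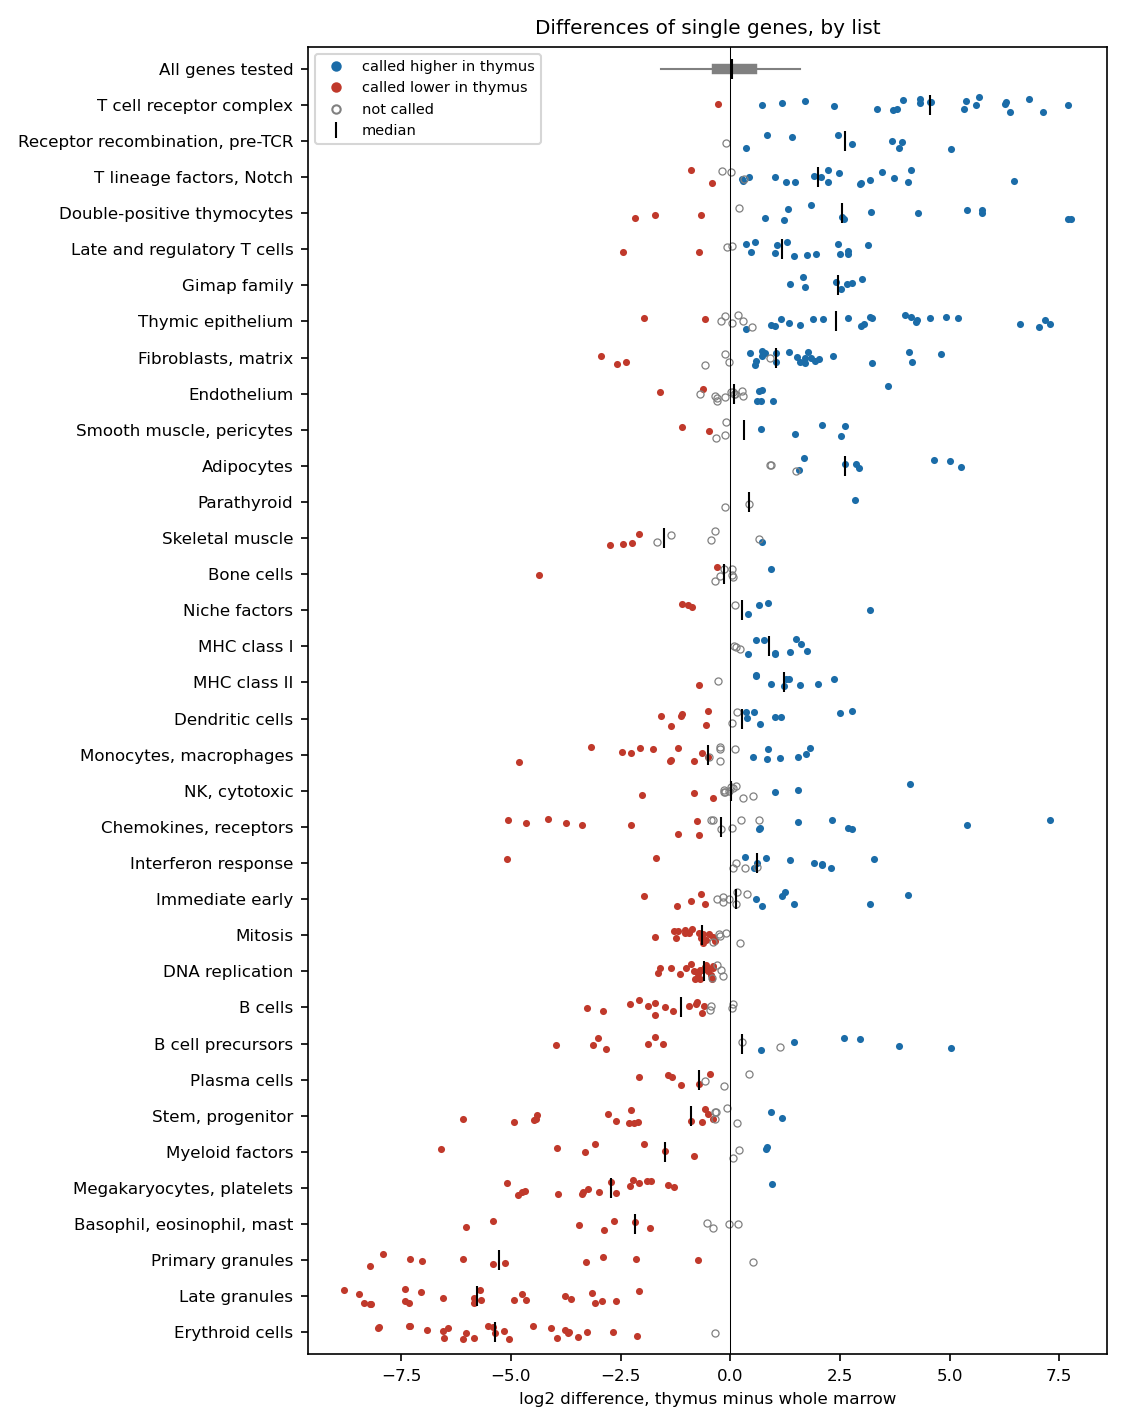
Log2 difference, thymus minus marrow, of each tested gene in each list, with a point per gene, the list median as a tick, and at the top, for all genes tested, the middle quartiles as a thick bar and the 5th to 95th percentiles as a thin one. T cell receptor and epithelial genes lie mostly above 0, with medians of 4.55 and 2.40, and late granule and erythroid genes mostly below it, with medians of -5.77 and -5.37.

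The connective tissue of the organs differed less evenly. Of 29 fibroblast and matrix genes, 22 rose and 3 fell (median 1.04). Postn, the matrix protein periostin, had 9.74, 9.62, 9.66, 9.60 and 9.78 in thymus against 4.94, 4.85 and 4.84 in marrow, a difference of 4.80 ± 0.10 (adjusted p = 1.91e-11). Col3a1, a fibrillar collagen of soft tissue, had 10.07, 10.48, 9.37, 10.61 and 9.86 in thymus against 5.99, 5.90 and 5.91 in marrow (4.14 ± 0.24). Dcn, the proteoglycan decorin, had 10.73, 10.23, 9.95, 10.97 and 10.51 in thymus against 6.42, 6.29 and 6.51 in marrow (4.07 ± 0.20). Every thymus was more than 3 log2 units above every marrow for these 3 genes. Mgp, an inhibitor of calcification, rose by 2.35. The chains of bone's main collagen did not follow: Col1a2 had 7.98, 7.90, 7.32, 8.78 and 8.16 in thymus against 7.37, 7.56 and 9.22 in marrow, and Col1a1 had 5.39, 5.85, 5.08, 5.43 and 5.21 in thymus against 5.69, 5.46 and 6.77 in marrow, and neither passed. Marrow 3 was the highest array for both. Sparc, a matrix protein of bone and vessels, did not pass either (0.90 ± 0.41), with thymus 4 lowest at 7.68. Pi16, a protease inhibitor family member of some fibroblasts, fell by 2.94 (6.79, 6.55, 5.99, 7.17 and 6.96 in thymus against 9.85, 9.93 and 9.13 in marrow).

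Endothelial genes had no common direction, with 6 of 19 up, 2 down and a median of 0.08, so 8 of 19 were called against 54.6% of all genes. Ets2, a widely used transcription factor, rose by 3.60 and Pecam1, the junction molecule CD31, by 0.98, while Tie1, a vessel receptor, fell by 1.61 and Cdh5, the junction cadherin, read 0.30 ± 0.22. Of 10 smooth muscle and pericyte genes, 5 rose and 2 fell (median 0.31). Rgs5, of pericytes, rose by 2.61 and Tagln, an actin-binding protein, by 2.09. Bone showed in Ibsp, a sialoprotein of bone matrix, with 3.24, 3.22, 3.15, 3.23 and 3.08 in thymus against 7.30, 7.89 and 7.41 in marrow (-4.35 ± 0.13). It was 1 of the 2 bone cell genes that fell among 9 (1 rose, median -0.14), against 54.6% of all genes called. Sp7, an osteoblast factor, did not pass (-0.23 ± 0.11). Of 8 niche factors of marrow, 4 rose and 3 fell (median 0.26). The direction of Cxcl12, the chemokine that holds stem cells in marrow, turned on the probe set. The one used had 10.42, 10.36, 10.06, 10.54 and 10.22 in thymus against 9.58, 9.89 and 9.55 in marrow (0.65 ± 0.13, adjusted p = 0.00176, limma). Another bright one gave 9.55 in thymus against 10.81 in marrow. Kitl, the ligand of Kit, rose by 0.41 and Vcam1, an adhesion molecule, by 0.86. The mean of all probe sets turned the first 2 round, to -0.31 for Cxcl12 and -0.053 for Kitl.

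Fat genes divided the thymuses. With all 5, 8 of 11 rose and none fell (median 2.62), but only 3 separated the groups. Cidea, a lipid droplet protein of brown fat, had 11.71, 11.20, 4.58, 11.14 and 10.84 in thymus against 4.62, 4.50 and 4.76 in marrow. Ucp1, the uncoupling protein of brown fat, had 11.19, 11.12, 4.21, 10.39 and 9.73 in thymus against 4.13, 4.47 and 4.33 in marrow. Thymus 4 was at the marrow's level for both genes, and the other 4 thymuses were more than 5 log2 units above it. The hormone gene Adipoq had 11.40, 10.50, 5.42, 10.91 and 11.03 in thymus against 8.21, 8.45 and 8.37 in marrow, so thymus 4 lay below every marrow, and the difference of 1.51 ± 1.10 did not pass (adjusted p = 0.27). Fabp4, the fatty acid carrier of fat cells, had 12.78, 12.65, 9.21, 12.28 and 12.38 in thymus against 8.85, 8.86 and 9.07 in marrow (2.94 ± 0.67). Without thymus 4 all 11 rose, with a median of 3.31. The same array was low in fat metabolism genes outside the lists, for example Thrsp, a lipogenic factor, with 11.46, 10.73, 5.30, 9.61 and 10.51 in thymus against 5.77, 5.34 and 5.26 in marrow.

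Some genes of parathyroid, heart and skeletal muscle differed widely between arrays of 1 tissue. Pth, parathyroid hormone, had 8.88, 5.18, 4.74, 5.49 and 7.90 in thymus against 3.44, 3.79 and 3.56 in marrow, highest in thymuses 1 and 7 (2.84 ± 0.81, adjusted p = 0.0119, limma). It was the 1 gene that rose among 3 parathyroid genes, against 31.1% of all genes tested. Heart genes were highest in thymus 5 among the 5 thymuses: Nppa, the atrial natriuretic peptide, had 3.73, 3.58, 3.69, 8.01 and 3.83 in thymus against 3.89, 3.81 and 3.69 in marrow, and Myl7, an atrial myosin light chain, 6.25, 4.69, 5.20, 9.18 and 5.74 in thymus against 5.05, 4.52 and 4.63 in marrow. Myh6, a cardiac myosin heavy chain, had 6.08, 3.96, 3.90, 8.66 and 5.33 in thymus against 3.87, 3.78 and 3.47 in marrow, so thymuses 1 and 7 were also above marrow. Thymus 2, left out of the comparison, was above thymus 5 for Myl7 (10.91) and for Myh6, and had 6.17 for Nppa. Skeletal muscle genes divided the marrows instead. Myh4, a fast myosin, had 3.61, 3.75, 3.56, 3.73 and 3.98 in thymus against 9.26, 3.69 and 6.43 in marrow, and Acta1, skeletal actin, 5.46, 5.01, 5.42, 5.29 and 5.72 in thymus against 10.16, 5.73 and 7.56 in marrow. Marrow 1 was highest and marrow 2 at the thymus level. Of 10 muscle genes, 1 rose and 4 fell (median -1.51), against 31.1% and 23.5% of all genes tested. Without marrow 1 the median was -0.31. Whether neighbouring tissue played a part in these or any other differences was not tested.

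**Figure D4:**
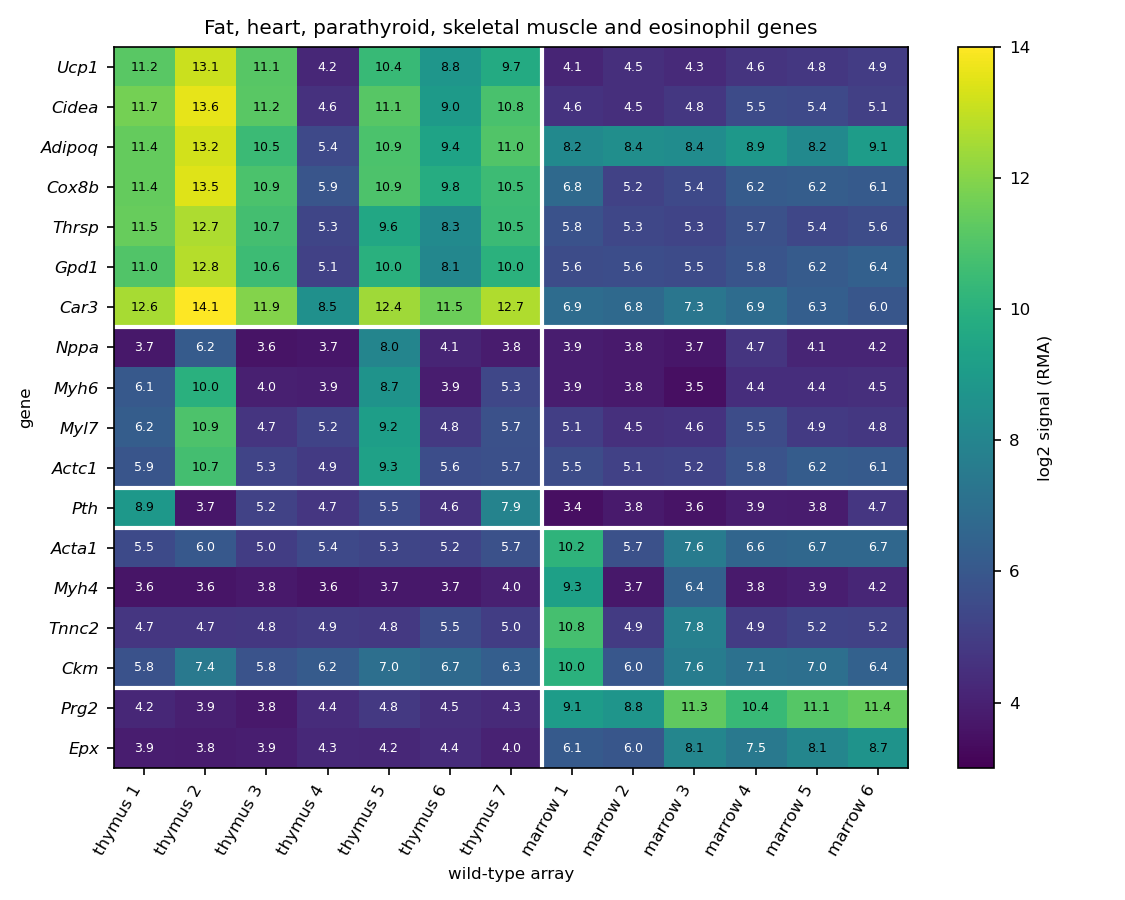
Log2 signal per array of genes that vary most within a tissue, as a map with thymus 1 to 7 left of marrow 1 to 6. Cidea is at 4.58 in thymus 4 and 10.84 to 11.71 in thymuses 1, 3, 5 and 7, and Tnnc2, a fast muscle troponin, is at 10.77 in marrow 1 and 4.92 in marrow 2.

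Antigen presentation was higher in thymus in both classes. Of 11 class II genes, 9 rose and 1 fell (median 1.22). H2-Ab1, a class II beta chain, had 11.54, 11.47, 11.82, 12.23 and 12.00 in thymus against 9.33, 9.43 and 9.61 in marrow, a difference of 2.36 ± 0.17 (adjusted p = 4.72e-07). H2-Aa, its alpha partner, had 12.86, 12.69, 12.88, 12.94 and 12.83 in thymus against 11.01, 10.67 and 10.81 in marrow (2.01 ± 0.11). Cd74, the invariant chain, rose by 1.28 and H2-Eb1 by 1.33, whereas Ctss, the cathepsin of class II processing in dendritic cells, read -0.27 ± 0.14 and did not pass. The choice of marrow mattered here: against 3 wild-type marrows labelled C57B6, the median class II difference was -0.31 and that of H2-Eb1 -2.90. Of 12 class I genes, 9 rose and none fell (median 0.89). The classical heavy chains did not pass by the probe sets used, with H2-K1 at 0.12 ± 0.10 and H2-D1 at 0.10 ± 0.11. Their other probe sets ran from 0.44 to 0.82 for H2-K1 and from -0.05 to 0.82 for H2-D1. The 9 that rose included genes of peptide supply, such as the immunoproteasome subunits Psmb10 (1.50) and Psmb8 (1.37). The transporter subunits Tap2 (1.76) and Tap1 (1.01) and the class I transactivator Nlrc5 (1.62) rose too.

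Dendritic cell genes had no common direction (8 of 16 up, 6 down, median 0.26). Ccl22, a chemokine of mature dendritic cells, had 8.09, 7.88, 8.01, 8.41 and 8.15 in thymus against 5.25, 5.45 and 5.28 in marrow (2.78 ± 0.13), and Itgax, the CD11c integrin chain, did not pass (0.16 ± 0.12). Among 24 monocyte and macrophage genes, 7 rose and 12 fell (median -0.50). Those that fell included Clec4e, a lectin receptor of inflammatory monocytes, with 3.47, 3.84, 3.58, 3.49 and 3.17 in thymus against 7.63, 8.81 and 8.53 in marrow (-4.81 ± 0.24), and also an Fc receptor gene, Fcgr3, which fell by 3.18. Ccr2, the chemokine receptor of monocytes leaving marrow, fell by 2.26. C1qc, a complement chain made by resident macrophages, rose instead, with a mean of 9.24 ± 0.17 in thymus (SD, n = 5) and 7.70 ± 0.45 in marrow (SD, n = 3) (1.54 ± 0.18).

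Of the programmes of marrow, the late granule genes of neutrophils had the lowest median difference of the 36 lists. All 24 late granule and maturity genes fell in thymus (median -5.77) and 11 of 12 primary granule genes (median -5.27), against 23.5% of all genes that fell. Mpo, myeloperoxidase of primary granules, had 4.43, 5.31, 4.96, 5.11 and 5.00 in thymus against 12.89, 13.42 and 13.21 in marrow, a difference of -8.21 ± 0.19 (adjusted p = 4.32e-11). Elane, neutrophil elastase, had 5.65, 5.46, 6.15, 5.67 and 5.48 in thymus against 12.51, 12.85 and 12.75 in marrow (-7.03 ± 0.16). Ltf, lactoferrin of secondary granules, had 6.07, 4.86, 5.10, 4.78 and 5.48 in thymus against 13.60, 13.82 and 13.75 in marrow (-8.47 ± 0.25). Mpo, Elane and Ltf lay more than 6 log2 units apart between the tissues on every pair of arrays. Ngp and Camp, granule peptides, fell by 8.19 and 8.22. S100a9, which forms calprotectin with S100a8, had 6.27, 6.66, 7.76, 7.04 and 7.05 in thymus against 14.21, 14.37 and 14.24 in marrow (-7.32 ± 0.26), and S100a8 fell by 5.85. Thymus 4 had the highest S100a9 of the thymuses and thymus 1 the lowest. Cxcr2 and Mmp9, a chemokine receptor and a gelatinase of mature neutrophils, fell by 4.66 and 4.93.

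The TTGCNNAA motif, a core that C/EBP factors of granulocytes can bind, was searched on both strands of the 300-base promoter windows. It was in 6 of 20 late granule promoters (30.0%) and 2 of 11 primary granule promoters, against 12.2% of all 27025. Shown are 4 of the 6, from genes among the largest falls, each as the 250 bases before the start in GRCm38.p6 (RefSeq) with matches in capitals: Ltf at chr9:111019042-111019291 (plus strand), Mmp8, the neutrophil collagenase, at chr9:7558179-7558428 (plus strand), Lcn2, a siderophore-binding lipocalin, at chr2:32387740-32387989 (minus strand), and Ngp at chr9:110419558-110419807 (plus strand).
Ltf: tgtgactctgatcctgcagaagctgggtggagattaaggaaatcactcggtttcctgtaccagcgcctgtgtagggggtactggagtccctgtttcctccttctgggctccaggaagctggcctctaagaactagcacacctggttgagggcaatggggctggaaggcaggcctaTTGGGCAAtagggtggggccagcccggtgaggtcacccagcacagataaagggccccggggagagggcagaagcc
Mmp8: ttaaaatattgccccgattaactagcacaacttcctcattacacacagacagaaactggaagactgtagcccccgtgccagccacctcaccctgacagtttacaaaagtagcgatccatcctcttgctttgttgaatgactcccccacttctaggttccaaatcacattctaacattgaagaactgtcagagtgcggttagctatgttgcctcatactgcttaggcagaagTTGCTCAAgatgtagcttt
Lcn2: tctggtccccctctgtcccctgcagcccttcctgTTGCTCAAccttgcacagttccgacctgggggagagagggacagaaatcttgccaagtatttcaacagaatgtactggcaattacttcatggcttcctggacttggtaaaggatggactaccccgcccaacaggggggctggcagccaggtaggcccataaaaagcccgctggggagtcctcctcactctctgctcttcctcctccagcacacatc
Ngp: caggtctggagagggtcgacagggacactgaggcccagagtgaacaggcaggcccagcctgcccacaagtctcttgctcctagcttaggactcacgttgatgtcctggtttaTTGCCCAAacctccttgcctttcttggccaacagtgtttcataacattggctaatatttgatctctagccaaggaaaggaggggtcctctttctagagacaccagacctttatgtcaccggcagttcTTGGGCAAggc
The match began 75 bases before the start in Ltf, 19 in Mmp8 and 216 in Lcn2, and Ngp held matches at 138 and 11 bases. In thymus Mmp8 read 4.46, 4.39, 4.66, 4.53 and 3.97 against 11.54, 12.07 and 11.86 in marrow, and Lcn2 5.54, 6.14, 5.07, 5.89 and 5.70 in thymus against 13.04, 13.15 and 13.03 in marrow. The positions share no common distance from the start.

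The red cell programme was as one-sided, with 26 of 27 erythroid genes down and none up (median -5.37). Slc4a1, the anion exchanger band 3, averaged 5.06 ± 0.59 in thymus (SD, n = 5) and 13.06 ± 0.11 in marrow (SD, n = 3), a difference of -8.00 ± 0.27 (adjusted p = 1.04e-09). Klf1, the erythroid Krüppel-like factor, had 4.41, 4.69, 5.17, 4.87 and 5.03 in thymus against 12.05, 11.99 and 12.32 in marrow (-7.29 ± 0.17). Gata1, the master factor of the lineage, had 5.57, 5.92, 5.86, 5.46 and 5.66 in thymus against 10.33, 9.94 and 10.29 in marrow (-4.49 ± 0.14). No array of thymus came within 4 log2 units of a marrow for these 3 genes. Rhag, of the Rh complex, fell by 8.02, Car1 and Car2, carbonic anhydrases, by 7.32 and 5.15, and Kel, a blood group protease, by 6.54. RNA of later red cells varied among thymuses: Hbb-b2, a beta globin, had 7.42, 7.33, 5.36, 6.36 and 4.99 in thymus against 12.08, 11.25 and 11.76 in marrow (-5.40 ± 0.51), and Alas2, the first enzyme of haem synthesis in red cells, 8.12, 7.83, 6.86, 8.04 and 6.26 in thymus against 13.06, 12.69 and 13.07 in marrow (-5.52 ± 0.38). Thymuses 1 and 3 were the highest for Hbb-b2 and thymus 7 the lowest. Hba-a2, an alpha globin with a dim probe set only, was the gene that did not pass (-0.34 ± 0.14).

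The GATA motif AGATAA, read on both strands, was in 9 of the 20 erythroid promoters that RefSeq holds (45.0%), in 4 of 15 receptor gene promoters and 1 of 18 of the T lineage factors, against 12.7% of all promoters. Printed are 3 of the 9, as 250 bases before the start: Alas2 at chrX:150547167-150547416 (plus strand), Epb42, a protein of the red cell skeleton, at chr2:121036878-121037127 (minus strand), and Kel at chr6:41704326-41704575 (minus strand), with the match in capitals. They begin 86, 226 and 56 bases before the start.
Alas2: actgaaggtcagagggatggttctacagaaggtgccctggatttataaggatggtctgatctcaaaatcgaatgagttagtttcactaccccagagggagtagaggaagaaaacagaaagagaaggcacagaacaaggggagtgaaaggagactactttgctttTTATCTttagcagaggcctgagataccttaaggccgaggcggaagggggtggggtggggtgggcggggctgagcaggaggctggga
Epb42: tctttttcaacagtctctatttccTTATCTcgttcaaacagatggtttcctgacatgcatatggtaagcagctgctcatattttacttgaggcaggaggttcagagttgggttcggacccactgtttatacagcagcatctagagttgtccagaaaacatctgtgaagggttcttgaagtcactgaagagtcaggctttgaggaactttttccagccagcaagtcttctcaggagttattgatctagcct
Kel: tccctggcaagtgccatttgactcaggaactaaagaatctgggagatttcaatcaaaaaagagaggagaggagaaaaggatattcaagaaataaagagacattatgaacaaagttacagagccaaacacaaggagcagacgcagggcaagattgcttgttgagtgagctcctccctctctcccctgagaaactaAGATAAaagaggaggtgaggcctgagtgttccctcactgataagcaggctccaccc
Epb42 read 3.63, 3.64, 4.05, 3.80 and 3.64 in thymus against 9.68, 9.45 and 10.17 in marrow, and Kel 4.38, 4.56, 4.53, 4.59 and 4.39 in thymus against 11.09, 10.75 and 11.27 in marrow. None of the 82 matches of the 3 motifs in the windows searched shared a base with a match of another motif.

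Megakaryocyte and platelet genes fell in 18 of 19 cases (median -2.73). Pf4, platelet factor 4, had 8.81, 8.61, 6.99, 7.90 and 7.88 in thymus against 12.30, 11.89 and 11.69 in marrow, a difference of -3.92 ± 0.34 (adjusted p = 2.28e-06). Gp1bb, of the von Willebrand factor receptor, had 5.23, 4.88, 3.64, 4.05 and 4.35 in thymus against 9.83, 9.20 and 8.80 in marrow (-4.84 ± 0.34). Thymuses 1 and 3 were highest and thymus 4 lowest for both. Itga2b, the integrin of platelet aggregation, fell by 3.24, Rgs18, a regulator of G protein signals, by 4.74, and Vwf by 2.61. Of 11 basophil, eosinophil and mast cell genes, 7 fell and none rose (median -2.17). Mcpt8, a basophil protease, had 3.91, 4.05, 4.31, 3.97 and 4.08 in thymus against 9.91, 10.47 and 9.89 in marrow (-6.02 ± 0.15). Prg2, the eosinophil major basic protein, had 4.21, 3.76, 4.38, 4.85 and 4.29 in thymus against 9.06, 8.75 and 11.33 in marrow, with marrow 3 highest, as it was for the eosinophil peroxidase Epx (3.87, 3.94, 4.25, 4.24 and 4.03 in thymus against 6.11, 5.95 and 8.06 in marrow).

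Stem and progenitor genes were lower in thymus in 16 of 23 cases and higher in 2 (median -0.89). Tal1, a factor of stem and erythroid cells, had 4.87, 4.93, 5.02, 4.83 and 5.30 in thymus against 11.15, 11.07 and 11.02 in marrow, a difference of -6.09 ± 0.12 (adjusted p = 1.91e-11). Its partners Lmo2 and Lyl1 fell by 4.47 and 4.42. Kit, the stem cell factor receptor, had 6.82, 6.23, 6.16, 6.35 and 6.11 in thymus against 8.31, 8.61 and 8.88 in marrow (-2.27 ± 0.18). Hoxa9, a homeobox factor of progenitors, had 3.69, 3.92, 4.09, 3.82 and 3.94 in thymus against 5.73, 6.81 and 6.05 in marrow (-2.31 ± 0.20), with a second probe set at -0.52. Prom1, a membrane protein of progenitors, fell by 4.41. Meis1, a cofactor of Hoxa9, did not pass (-0.07 ± 0.23), nor did Cd34 (-0.34 ± 0.21). Of 11 myeloid factors, 7 fell and 2 rose (median -1.49). Spi1, the myeloid factor PU.1, had 7.08, 6.60, 6.59, 6.86 and 6.81 in thymus against 9.98, 10.12 and 9.51 in marrow (-3.08 ± 0.16). Nfe2, of megakaryocytes and red cells, fell by 6.60 and Cebpd by 3.95, while Cebpa had 9.33, 9.02, 7.97, 9.41 and 8.46 in thymus against 8.72, 9.05 and 8.57 in marrow and did not pass, with thymus 4 lowest. Gfi1, a repressor used in neutrophil and thymocyte precursors, rose by 0.80 and Id2 by 0.84.

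Genes of B cells and plasma cells were lower in thymus, while those of B precursors went both ways. Of 18 B cell genes, 14 fell and none rose (median -1.12). Cd79a, a signalling chain of the B cell receptor, had 7.24, 6.90, 7.44, 7.63 and 8.09 in thymus against 9.48, 8.83 and 9.23 in marrow, a difference of -1.72 ± 0.24 (adjusted p = 9.22e-05). Btk, the kinase downstream of that receptor, had 5.74, 5.94, 6.08, 6.01 and 6.17 in thymus against 9.25, 9.28 and 9.19 in marrow (-3.25 ± 0.11). Cr2, the complement receptor of mature B cells, had 5.24, 4.91, 5.65, 5.42 and 5.98 in thymus against 5.66, 5.22 and 5.22 in marrow and did not pass. Of 15 genes of B precursors, 6 rose and 7 fell (median 0.27), and Rag1, Dntt and Lef1, which T cell precursors also use, were among the 6. The genes of the surrogate light chain fell: Vpreb1 had 5.30, 5.35, 5.22, 5.41 and 5.11 in thymus against 9.67, 9.03 and 9.06 in marrow (-3.97 ± 0.15), and Igll1 fell by 2.83. Sox4, a factor of early lymphocytes, rose by 2.60. Plasma cell genes fell in 6 of 9 cases and rose in none (median -0.72). Jchain, the joining chain, had 12.16, 11.81, 9.94, 9.71 and 10.45 in thymus against 12.13, 12.18 and 12.39 in marrow; the groups overlapped through thymus 1, and the difference was -1.42 ± 0.50 (adjusted p = 0.0311).

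Both organs proliferate, and cell cycle genes were modestly lower in thymus. Of 22 mitosis genes, 17 fell and none rose (median -0.63), and of 26 replication genes, 22 fell and none rose (median -0.60). Mki67, the Ki-67 antigen, had 11.74, 11.88, 11.92, 11.47 and 11.93 in thymus against 12.90, 12.81 and 12.72 in marrow, a difference of -1.02 ± 0.13 (adjusted p = 3.63e-05). Cdc6, which loads the replicative helicase, had 8.95, 9.21, 8.93, 8.70 and 9.02 in thymus against 10.42, 10.51 and 10.74 in marrow (-1.59 ± 0.13). Others did not pass, such as Top2a, a topoisomerase (0.23 ± 0.11), and Pcna, the polymerase clamp (-0.18 ± 0.11). Thymus 5 had the lowest mean of the mitosis genes, at 9.20, against 9.60 in the next thymus.

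Among chemokines and their receptors, 8 of 23 rose, the thymic pair Ccl25 and Ccr9 among them, and 9 fell (median -0.22). The falls included receptors of myeloid and red cells: Ccr1 had 5.48, 4.73, 4.92, 4.89 and 4.25 in thymus against 9.56, 10.20 and 9.97 in marrow (-5.06 ± 0.24), and Ackr1, the scavenging receptor of red cells and venules, fell by 3.75. Cxcr4, the receptor of Cxcl12, read -0.22 ± 0.13 and did not pass. NK and cytotoxic genes were split 3 up and 3 down of 15 (median 0.02), so 6 of 15 were called against 54.6% of all genes. Gzma, a granule protease, had 9.80, 10.06, 9.91, 9.64 and 9.98 in thymus against 5.73, 6.00 and 5.63 in marrow (4.09 ± 0.13), while Nkg7, a granule membrane protein, fell by 2.02 and Prf1, perforin, read 0.02 ± 0.14. Of 16 interferon response genes, 10 rose and 2 fell (median 0.61). Ifit1, an antiviral RNA-binding protein, had 8.37, 8.19, 8.76, 9.06 and 8.02 in thymus against 5.22, 5.39 and 5.01 in marrow (3.27 ± 0.22), and Usp18, a brake on the response, rose by 1.92. Against them ran Rsad2, the antiviral enzyme viperin, with 7.69, 7.58, 7.60, 8.06 and 7.24 in thymus against 12.94, 12.62 and 12.64 in marrow (-5.10 ± 0.17). Its other 2 probe sets gave differences of -5.82 and -5.90. Of 19 immediate early genes, 7 rose and 5 fell (median 0.12), near the 31.1% and 23.5% of all genes tested. Jun (1.19) and Fos (-1.22) went in opposite directions.

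Thymus was also set against spleen, a lymphoid organ that in mice makes red cells too. Against spleen, 7015 of the 15310 genes passed (45.8%), 3855 higher in thymus (25.2%) and 3160 lower (20.6%). The contrasts with spleen and with marrow share the thymus arrays. Over spleen, 8 of 10 recombination genes and 22 of 32 epithelial genes rose (medians 2.73 and 2.13), with Rag1 at 8.84 ± 0.30 (adjusted p = 5.21e-10). Of 23 T cell receptor genes, 21 rose over spleen (median 2.44, against 4.55 over marrow), and Cd3g read 8.83 and 9.36 in spleen. For the Gimap genes the direction was the other way: 5 of 8 were lower in thymus than in spleen and 1 higher, with Gimap3 at -1.60 ± 0.20. All 11 class II genes were lower in thymus than in spleen, and all 18 B cell genes (median -4.00). Of 27 erythroid genes, 26 were lower in thymus than in spleen, where Klf1 read 11.78 and 10.77. Granule genes were mostly lower in thymus than in spleen, with 18 of 24 late granule genes lower and 2 higher, and 9 of 12 primary granule genes lower and none higher. Among 23 stem and progenitor genes, 11 were lower than in spleen and none higher. Mmp9, a late granule gene, and Prom1, a progenitor gene, were not lower (0.44 and 0.26). Mitosis genes, lower in thymus than in marrow, were higher in thymus than in spleen in 13 of 22 cases and lower in none.

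**Figure D5:**
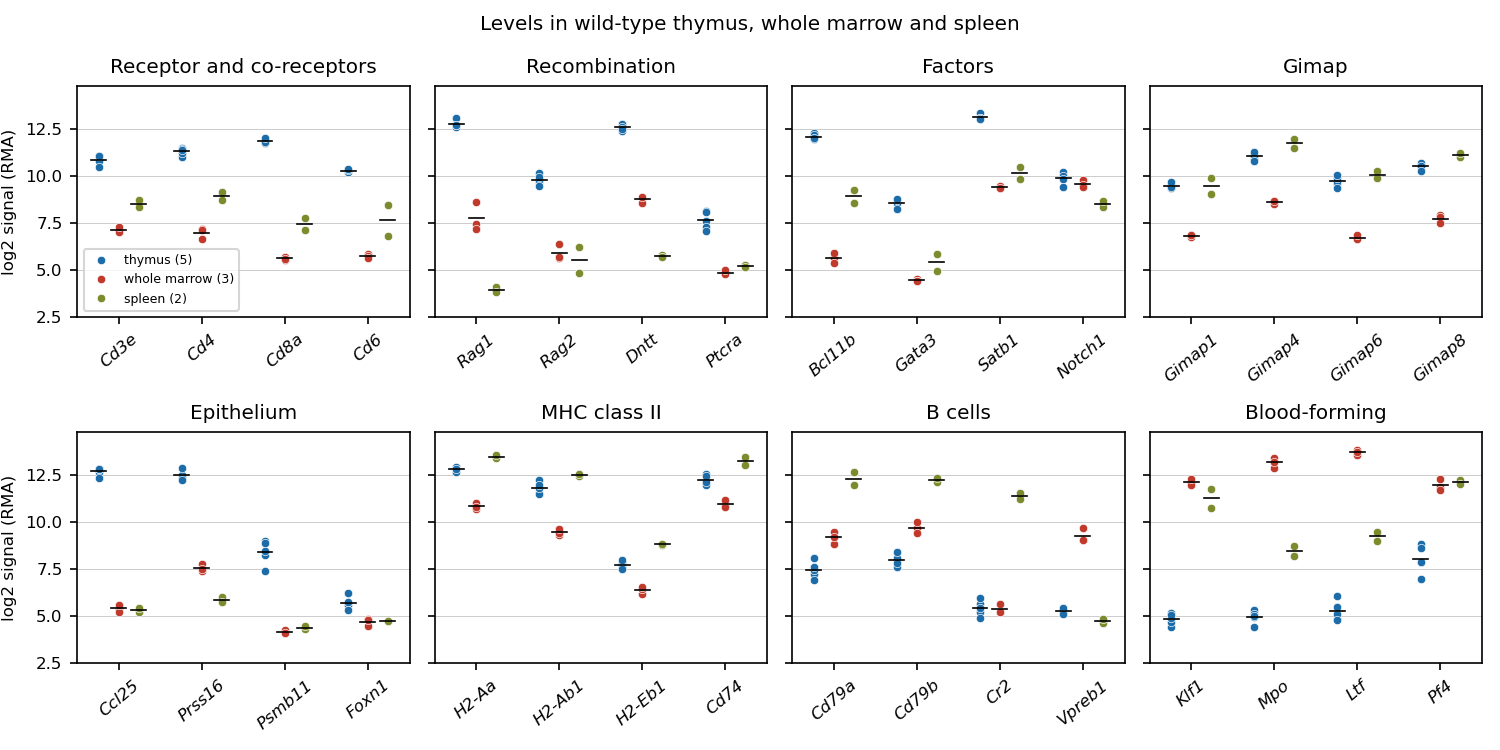
Log2 signal of 4 genes from each of 8 groups, with a point per array, a line at the mean, and thymus left of marrow and spleen. Gimap4 lies at 10.80 to 11.29 in thymus, 8.54 to 8.69 in marrow and 11.52 to 11.99 in spleen.

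The arrays left out of the comparison were read against the calls. Thymus 6 minus the mean of marrows 4 to 6, which share its compressed signal, had the same sign for 3729 of the 4760 genes called higher (78.3%) and for 3299 of the 3599 called lower (91.7%). Of the genes called with a difference of at least 2, 492 of 495 that rose and 542 of 546 that fell had the same sign there. Thymus 2, which lacked thymic genes, minus the same marrows still had the sign of the call for 405 of the 495 (81.8%) and 492 of the 546 (90.1%). A shared sign thus says little about thymic identity. The signs over all genes tested were not counted.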

How the data were processed

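Total RNA from whole organs was labelled and hybridised to Affymetrix mouse expression arrays, and the deposited values are log2 signals per probe set that the authors made with RMA, per the submitters' processing notes, with no version given. Each probe set with 1 gene was named through its Entrez ID in RefSeq (GRCm38.p6), giving 18165 genes from 34842 of 44943 probe sets; 931 had several genes and 9106 none. Where a gene had several probe sets, the one brightest on average over all 57 arrays stood for it. Genes at or above the 40th percentile of signal on at least 3 arrays were tested (15310). The 5 thymuses and 3 marrows were fitted with limma 3.58.1 in R 4.3.3 (lmFit, eBayes), with Benjamini-Hochberg adjustment over all genes and a threshold of 0.05; spleen entered a model of 10 arrays. In simulated data, 100 of the 15310 genes were raised by 1 and 100 by 2 on the log2 scale. Of these, 88 percent and 100 percent were recovered, with 11 false calls. Far fewer genes changed there than the 54.6% called in the comparison, so the false calls of the comparison cannot be read from it. The number of arrays limits the precision.

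The comparison and the 36 gene lists were chosen with earlier results of these data known. Named genes are the 15 largest rises and 15 largest falls among called genes whose groups do not overlap, within each list at most 8 leaders by adjusted p and the members not called, and a fixed set of lineage genes. Epb42, Hbb-b2 and Zap70 among list members, and Thrsp, Nppa, Myl7, Myh6 and Tnnc2 outside the lists, were named after their values were seen. So were Dtx1, Hes1 and Nrarp, also list members. Alternatives tried were filters, probe set choice, normalization, model settings, blocks and covariates, and other thymus and marrow arrays.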

Additional observations from a re-analysis of the deposited data

Results flagged for a closer look

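In these results 1 array lay far from the other 4 thymuses, by the gap to its nearest neighbour over the whole range. Among 224 genes and list means checked, chance flags about 1 in 20, so a single flag below can be chance. Where the thymuses lie close together, a small gap is enough for a flag. The fat genes were low in thymus 4: their mean level was 5.82, against 9.30 in the next thymus, with Cidea at 4.58, Ucp1 at 4.21, Adipoq at 5.42 and Fabp4 at 9.21. Thymus 4 also had the lowest mean of the B precursor genes, 8.25 against 8.59 in the next, and the highest Cd247, 11.13 against 11.02. In thymus 5, the mean of the cortical thymocyte genes was 10.02 against 10.13 in the next and that of the mitosis genes 9.20 against 9.60, and Tbata was at 12.28 against 11.87. Thymus 3 was high for Endou (12.04) and Satb1 (13.35) and low for Icos (7.15), thymus 7 was low for Vcam1 (10.35), and thymus 1 had the lowest mean of the bone cell genes, 5.27 against 5.39. Outside the comparison, Ucp1 reached 13.13 in thymus 2, against at most 4.47 in the marrows compared.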

How the results depend on the processing

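Other settings were tried for 189 of the named genes. Of their values there, 4468 kept the side of the threshold, and kept direction where the gene was called. A change of direction without a call in either fit counts among these. Another 185 lost the call, 48 gained it and 20 reversed with a call in at least 1 of the fits. The 8359 calls against marrow became 4327 (2540 higher, 1787 lower) in a model of all 57 arrays, 3540 (1783 higher, 1757 lower) with all 7 thymuses, and 902 (334 higher, 568 lower) for thymuses 2 and 6 against marrows 4 to 6. With 7 thymuses and 6 marrows, the array set as a block gave 3140 higher, and the replicate block gave 5624 calls, 3149 of them higher. Deviations of same-numbered thymus and marrow arrays correlated at -0.098 and 0.08 for numbers 1 and 3 of the arrays compared; over 7 thymuses and 6 marrows the values for numbers 1 to 6 were 0.387, -0.035, 0.329, -0.104, -0.297 and 0.543, above 0.1 for some pairs and not for others, so the arrays were taken to share only a number. Against marrows 4 to 6, calls came to 12147 (6428 higher, 5719 lower), of which 6744 were among the 8359. The 7015 calls against spleen became 2159 (1186 higher, 973 lower) in the model of 57 arrays and 1388 (461 higher, 927 lower) with all 7 thymuses. Leaving out 1 array gave 7440 to 8170 calls against marrow (4152 to 4650 higher, 3117 to 3573 lower) and 4861 to 7222 against spleen (2593 to 3984 higher, 2268 to 3238 lower).

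Reversals, whose causes were not tested, came with the mean of all probe sets (niche median -0.20, Cxcl12 -0.31, Kitl -0.053, Epcam 1.50, Zap70 1.60), marrows 4 to 6 (smooth muscle median -0.041, macrophage median 0.026, Cd34 0.72, Cxcr4 0.52, Ms4a4b -0.39, Pax9 -0.94, Prf1 -0.48, Tnfrsf11a -0.95), C57B6 marrows (dendritic median -0.10, class II median -0.31, H2-Eb1 -2.90, Cxcr4 0.82, Ms4a4b -6.18, Pcna 0.87, Tie1 0.27) and thymuses 2 and 6 against marrows 4 to 6 (macrophage median 0.11, chemokine median 0.0805, Foxn1 -0.9985, Gfi1 -0.55, Ly75 -0.25, Pth -0.031, Xrcc4 -0.11). Genes dim in both tissues have the least room to show a difference.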

Other observations

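Some further genes outside the comparison's lists differed between arrays of the same tissue. Igkv6-20, an immunoglobulin kappa variable gene, had 5.51, 6.45, 4.65, 4.15 and 4.74 in thymus against 5.57, 7.70 and 7.73 in marrow. Scgb3a1, a secretoglobin of airway epithelium, had 8.88, 5.10, 4.73, 4.93 and 5.48 in thymus against 5.19, 4.96 and 4.94 in marrow, and only thymus 1 was high. Cyp2e1, a cytochrome P450, had 5.99, 6.59, 4.67, 10.07 and 9.59 in thymus against 4.09, 4.29 and 4.51 in marrow, with thymuses 5 and 7 high. Elovl3, a fatty acid elongase of brown fat and skin glands, had 6.17, 8.65, 4.04, 5.19 and 4.59 in thymus against 3.97, 4.06 and 3.94 in marrow, with thymus 3 highest, an order that differs from that of Cidea and Ucp1. These genes were chosen after their values were seen, as among those with the largest spread within a tissue, and no test was made. Against the 3 marrows labelled C57B6, Ms4a4b, dim in the thymuses and marrows compared, read -6.18 (thymus minus marrow) and H2-Eb1 -2.90, where the marrows compared gave 0.03 and 1.33. The strain of the other mice is not in the labels, so strain and other differences between these marrows cannot be told apart.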
